A study of Mus musculus with 2 samples.

Results

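Transcription factors that set the identity of cortical projection neurons, the excitatory cells whose axons reach other cortical areas or leave the cortex, and of the cortical layers these cells form were examined for EGR1 binding. The 9 genes were Bcl11b, Fezf2, Tbr1, Cux1, Cux2, Rorb, Foxp2, Mef2c and Neurod2. A peak was counted at a gene when its centre lay in the gene body or within 10 kb of one of the gene's transcription start sites (TSSs) in GENCODE release M21. By this rule 13 of the 12014 deposited EGR1 peaks fell at 5 of the 9 genes. Bcl11b and Neurod2 had 4 peaks each, Cux2 and Mef2c had 2 each and Rorb had 1, whereas Fezf2, Tbr1, Cux1 and Foxp2 had 0.

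The study profiled the DNA that an EGR1 antibody pulls down from frontal cortex of male mice aged 6 weeks, all C57BL6N/129SvEv F1 hybrids with no mutation or treatment given in the labels. Chromatin of 4 to 5 mice entered each of the 2 ChIP replicates, which the deposited list merges, and the input DNA was not analysed here. Each peak has a position on mm10 and an irreproducible discovery rate (IDR), which is small when the peak ranks high in both replicates and which the authors limited to 2%. No read counts or single-replicate values were in the list, so depth per peak is unknown, no spread between replicates could be computed and no test between groups was possible. Because whole cortex was used, strong binding in few cells and weak binding in many cells cannot be told apart, and the tissue label could not be checked against marker expression.

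EGR1 is a zinc finger factor made within minutes of neuronal firing, and it binds a GC-rich site of 9 bases that reads GCGTGGGCG or GCGGGGGCG. Layer factors act earlier, when newborn neurons choose where they settle and where their axons go, and many stay on in the adult cortex as markers of a layer. Bcl11b (CTIP2) and Fezf2 are zinc finger factors of deep-layer neurons that project below the cortex, and Tbr1 and Foxp2 mark the deepest layer, which sends axons to the thalamus. Rorb is a nuclear receptor of the layer that receives thalamic input. Cux1 and Cux2 are homeodomain factors of the upper layers that shape dendrites and spines. Neurod2 is a basic helix-loop-helix factor of excitatory neurons in general, and Mef2c is a MADS-box factor that responds to calcium and controls the number of excitatory synapses.

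The sequences behind these results are shown first, all read from the GRCm38.p6 reference (NCBI RefSeq), the assembly that mm10 stands for. The 9 exact EGR1 sites in the windows of the 9 genes are printed with 10 bases to each side, in the direction in which the site reads and with the site in capitals, since they show where the preferred word was present with and without a peak. Neurod2 site 1, Neurod2 site 2 and Mef2c site 1 lay in a peak and the other 6 did not.
Neurod2 site 1 (chr11:98326278-98326306, plus strand): acagatccgcGCGTGGGCGgggcagccag
Neurod2 site 2 (chr11:98327267-98327295, minus strand): tcggccgtgcGCGGGGGCGtccactccga
Mef2c site 1 (chr13:83524450-83524478, minus strand): gggaggggacGCGGGGGCGgcaagcaaga
Neurod2 site 3 (chr11:98329292-98329320, minus strand): gggatgggcaGCGGGGGCGccccgtgttc
Neurod2 site 4 (chr11:98338919-98338947, plus strand): gtgccacgcaGCGGGGGCGgggcgggcgc
Cux2 site 1 (chr5:122055849-122055877, minus strand): tgtgtcggggGCGGGGGCGgggatctgat
Tbr1 site 1 (chr2:61815405-61815433, plus strand): gcgcgcgctcGCGGGGGCGtcagcgctcc
Cux1 site 1 (chr5:136265591-136265619, minus strand): tggggagctgGCGGGGGCGgggggggggg
Foxp2 site 1 (chr6:15300486-15300514, minus strand): gcttttggggGCGGGGGCGtaggcctgag
Only Neurod2 site 1 had the form GCGTGGGCG, and the other 8 had the form GCGGGGGCG. The Cux1 site ran straight into a stretch of G, and Neurod2 site 4 had GC-rich bases after it, whereas the 501 bp around the Foxp2 site had a GC content of only 40.5%.

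Whole peaks are shown next for the peak of lowest IDR at each of the 5 bound genes, plus Neurod2 peak 3, whose exact site is in the coding exon. Peaks are numbered along each gene in the direction of transcription. All are written 5′ to 3′ on the plus strand of the reference, and bases annotated as UTR were left out of the Rorb, Mef2c and Neurod2 peak 3 runs. Capitals mark the exact EGR1 site or, where a peak had none, each site within 1 mismatch of it, as read on the plus strand, so that a site on the other strand appears as its reverse complement.
Neurod2 peak 2 (chr11:98328784-98328986, plus strand): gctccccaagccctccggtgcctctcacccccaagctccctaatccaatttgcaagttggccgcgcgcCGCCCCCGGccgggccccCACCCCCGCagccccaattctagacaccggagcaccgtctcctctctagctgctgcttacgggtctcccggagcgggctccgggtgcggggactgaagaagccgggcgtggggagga
Neurod2 peak 3 (chr11:98327188-98327404, plus strand): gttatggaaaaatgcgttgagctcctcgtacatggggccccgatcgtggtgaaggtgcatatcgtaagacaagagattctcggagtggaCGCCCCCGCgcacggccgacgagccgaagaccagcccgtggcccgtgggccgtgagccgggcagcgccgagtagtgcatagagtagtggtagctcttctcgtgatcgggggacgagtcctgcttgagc
Mef2c peak 2 (chr13:83524415-83524534, plus strand): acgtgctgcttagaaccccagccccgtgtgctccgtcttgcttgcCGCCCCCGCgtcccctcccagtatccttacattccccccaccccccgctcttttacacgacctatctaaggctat
Cux2 peak 1 (chr5:122059465-122059725, plus strand): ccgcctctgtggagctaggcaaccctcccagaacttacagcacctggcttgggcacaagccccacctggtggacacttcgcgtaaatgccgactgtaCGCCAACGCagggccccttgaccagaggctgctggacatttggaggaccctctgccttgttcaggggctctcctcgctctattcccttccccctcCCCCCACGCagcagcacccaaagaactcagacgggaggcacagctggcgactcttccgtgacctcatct
Rorb peak 1 (chr19:19111197-19111455, plus strand): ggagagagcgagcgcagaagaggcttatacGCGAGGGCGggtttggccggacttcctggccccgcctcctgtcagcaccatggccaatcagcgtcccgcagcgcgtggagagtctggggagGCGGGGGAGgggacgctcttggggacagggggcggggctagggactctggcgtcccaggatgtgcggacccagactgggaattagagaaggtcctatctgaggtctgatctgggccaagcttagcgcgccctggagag
Bcl11b peak 3 (chr12:107969780-107970043, plus strand): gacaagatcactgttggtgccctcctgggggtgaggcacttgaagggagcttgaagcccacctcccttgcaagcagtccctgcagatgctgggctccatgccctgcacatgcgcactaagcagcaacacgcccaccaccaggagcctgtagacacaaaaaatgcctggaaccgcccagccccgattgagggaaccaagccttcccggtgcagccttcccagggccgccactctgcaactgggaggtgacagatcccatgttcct
Neurod2 peak 3 and the Mef2c run hold the exact word as its reverse complement, Neurod2 peak 2 and the Cux2 and Rorb peaks hold 2 near-matches each, and the Bcl11b peak holds no word within 1 mismatch, so it has no capitals.

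Neurod2 had the densest set of peaks. The gene is only 4.23 kb long (chr11:98325415-98329648, minus strand, 2 exons, 1 TSS), and 3 of its 4 peaks were centred inside it. Neurod2 peak 2 (chr11:98328784-98328986) lay in intron 1, 763 bp downstream of the TSS, with an IDR of 4.79e-08 that ranked 392 of 12014, the lowest IDR among the 13 peaks. Neurod2 peak 3 (chr11:98327150-98327404) was centred in the coding part of exon 2, 2371 bp from the TSS, with an IDR of 6.05e-06 and rank 3478. Neurod2 peak 4 (chr11:98326177-98326427) lay in the 3′ UTR part of the same exon, 3346 bp from the TSS, with an IDR of 0.00133 and rank 7500. Neurod2 peaks 2, 3 and 4 were thus centred in the intron, the protein-coding sequence and the UTR of this short gene, with centres 1608 and 975 bp apart. Neurod2 peak 1 (chr11:98338490-98338753) lay 8973 bp upstream, with an IDR of 0.00843 and rank 10341. The TSS of Ppp1r1b (DARPP-32, a phosphatase inhibitor of dopamine signalling) was 9783 bp from the centre of Neurod2 peak 1, so the Neurod2 TSS was the nearer one by less than 1 kb. Of 4141 protein-coding genes of 5 kb or less, 4 (0.0966%) had 3 or more peaks centred in their body, namely Neurod1, Neurod2, Crlf2 and Csf2ra. This comparison was chosen after the values were seen.

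Bcl11b (chr12:107910403-108003602, minus strand, 93.2 kb, 4 exons) also had 4 peaks, spread over its promoter and 2 introns. Bcl11b peak 2 (chr12:108003591-108003840) was centred 113 bp upstream of the TSS of transcript Bcl11b-201, with an IDR of 0.000289 and rank 5907, and 47.2% of its bases are soft-masked as repeat in the reference. Bcl11b peak 1 (chr12:108004341-108004590) lay 863 bp upstream, with an IDR of 0.00955 and rank 10568, the highest IDR of the 13. Both promoter peaks sat side by side, 750 bp apart between centres. Bcl11b peak 3 (chr12:107969780-107970043) lay in intron 2, 33503 bp from the nearest TSS, with an IDR of 4.97e-06 and rank 3371. Bcl11b peak 4 (chr12:107935016-107935279) lay in intron 3, 68267 bp from the nearest TSS, with an IDR of 0.00029 and rank 5910. The peak of lowest IDR at Bcl11b was therefore deep in an intron and not at the promoter, while Bcl11b peaks 2 and 4 had almost the same IDR at the promoter and inside the gene.

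The other deep-layer factors had no peak by the rule. For Fezf2 (chr14:12342094-12348189, minus strand, 6.10 kb) the nearest peak in the list, chr14:12296482-12296731, was centred 49238 bp from a TSS of the gene. For Tbr1 (chr2:61802930-61814114, plus strand, 11.2 kb) it was chr2:61711489-61711738, at 91317 bp and 81 bp from the TSS of Psmd14, a proteasome subunit gene. For Foxp2 (chr6:14901349-15441977, plus strand, 541 kb, 16 TSSs) it was chr6:15792787-15793036, at 416222 bp from a TSS and beyond the end of the gene. Foxp2 thus had no peak in the gene or within 100 kb of it, although it is the longest of the 9 genes. A gene with no peak in a list limited to an IDR of 2% may still be bound below that limit.

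Rorb (chr19:18930605-19111196, minus strand, 181 kb) had a single peak at its most upstream promoter. Rorb peak 1 (chr19:19111192-19111455) was centred 127 bp upstream of the TSS of transcript Rorb-203, with an IDR of 0.000609 and rank 6630. The other annotated TSSs of the gene lay 110206 bp or more from that peak, so the peak was at the start of Rorb-203 and none was at the inner promoter. Rorb-203 is the main transcript of Rorb here, meaning the longest-spanning protein-coding one of the GENCODE basic set. Which transcripts are used in this tissue was not measured.

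Between the paralogs of the upper layers, Cux2 had 2 peaks and Cux1 had none. Cux2 peak 1 (chr5:122059465-122059725) lay 9493 bp upstream of the gene (chr5:121856366-122050102, minus strand, 194 kb, 11 TSSs), with an IDR of 4.92e-05 and rank 4620. Of all the counted peaks outside a gene body it was the one closest to the 10 kb limit. Cux2 peak 2 (chr5:121892315-121892576) lay in intron 5 of 23-exon Cux2-202, 157657 bp from the first TSS and 2936 bp downstream of the TSS of a shorter, noncoding transcript of the gene, with an IDR of 0.000883 and rank 7017. Neither Cux2 peak was within 2 kb of a TSS, so the CpG-rich first promoter of Cux2 had none. Cux1 (chr5:136248135-136567490, minus strand, 319 kb, 14 TSSs) is on the same chromosome, and its nearest peak, chr5:136244999-136245160 with an IDR of 9.4e-06, was centred 3056 bp past the 3′ end of the gene and 176 bp from the TSS of the next gene, Sh2b2. That peak was 57442 bp from the closest Cux1 TSS and was not counted.

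Mef2c (chr13:83504034-83667080, plus strand, 163 kb) has 27 annotated TSSs, and its peaks lay around an inner group of them. Mef2c peak 2 (chr13:83524415-83524890) was centred 39 bp downstream of the TSS of transcript Mef2c-223, with an IDR of 5.1e-05 and rank 4640, and 11 of the 27 TSSs were within 2 kb of a peak. It spanned 476 bp, and only 10 of the 11938 peaks on assembled chromosomes (0.0838%) were as wide or wider, a comparison made after its width was seen. Mef2c peak 1 (chr13:83518351-83518600) lay in intron 1 of Mef2c-201, 4998 bp upstream of the TSS of Mef2c-207 and 14441 bp from the first TSS, with an IDR of 0.00348 and rank 8830. The most upstream Mef2c promoter had no peak within 10 kb of it.

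**Figure D1:**
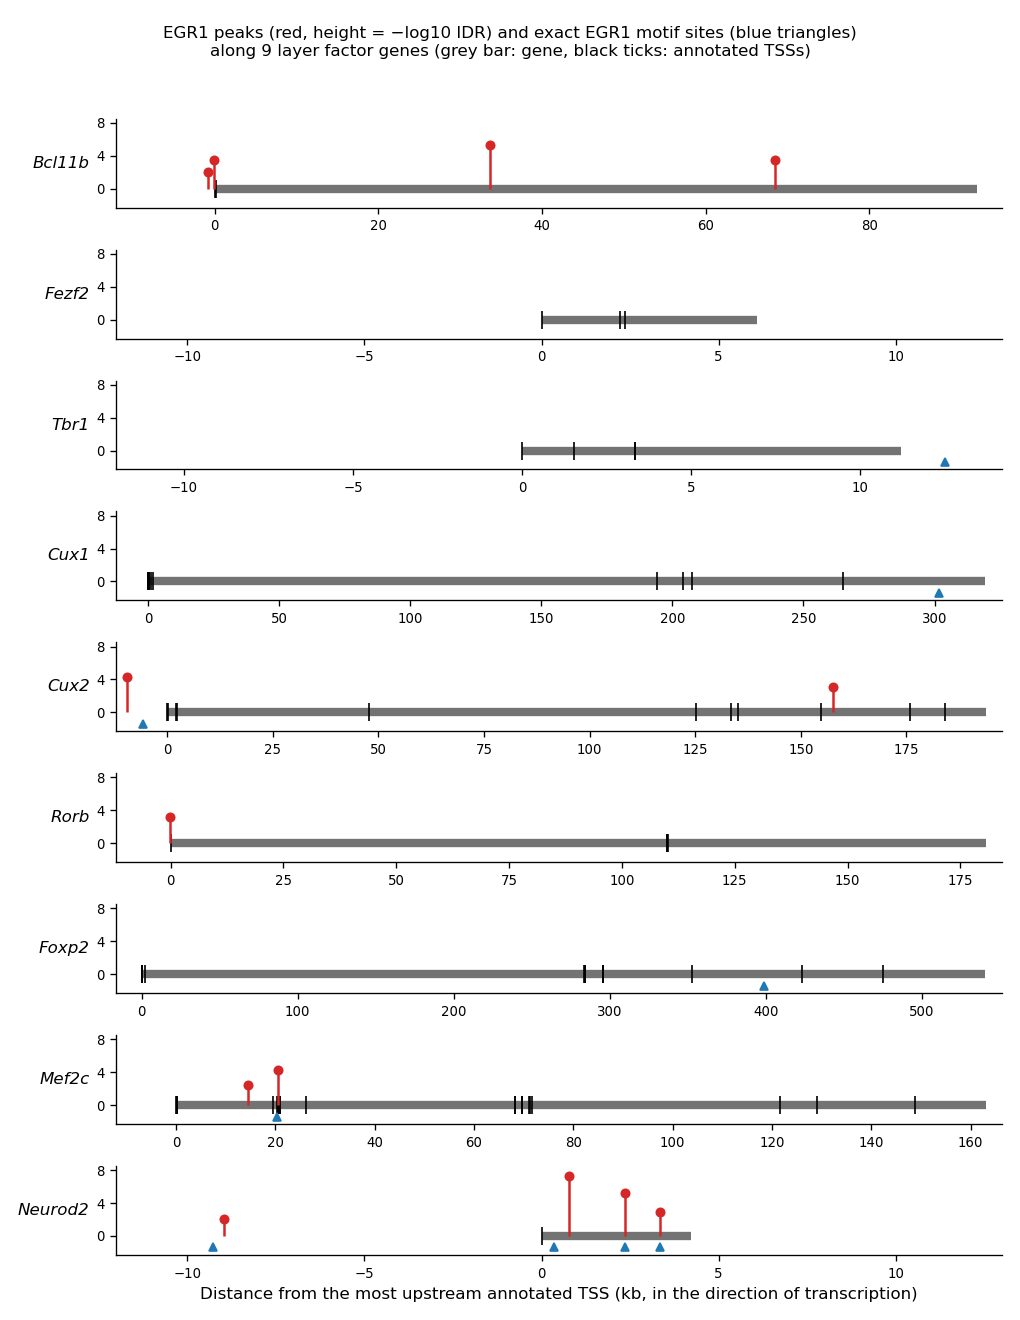
Map of the 9 genes to scale, one panel each: the x axis is the distance from the most upstream TSS in kb, with transcription to the right. Grey bars are gene bodies, black ticks TSSs, red points peaks at a height of −log10 IDR, and blue triangles exact EGR1 sites, so that the 4 Neurod2 peaks in and beside a gene of 4.23 kb can be set against the empty 541 kb of Foxp2.

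Among all 21938 protein-coding genes on assembled chromosomes, 39.6% had at least 1 peak by the same rule, beside 5 of the 9 layer factors (55.6%). At least 4 peaks were found at 1.84% of the protein-coding genes and at 2 of the 9, Bcl11b and Neurod2. The limit of 4 is the highest count among the 9 genes, and the 1.84% covers genes of every length. More sequence is counted for a long gene, so the genes were also split by length. Of genes of 100 kb or more, 61.6% had a peak, beside 3 of 5 layer factors of that length (Cux2, Rorb and Mef2c, but not Cux1 or Foxp2). Of genes of 300 kb or more, 69.7% had a peak, beside 0 of 2, Cux1 and Foxp2. Of genes of 15 kb or less, 29.7% had a peak, beside 1 of 3, namely Neurod2 but neither Fezf2 nor Tbr1. The numbers of layer factors in these classes are too small to set their shares apart from those of all genes. The median length was 163 kb for the 5 genes with a peak and 165 kb for the 4 without. None of the 4 was near that median, since Fezf2 and Tbr1 span 6.10 and 11.2 kb and Cux1 and Foxp2 span 319 and 541 kb. The near-equal medians therefore do not mean that the groups were alike in length.

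**Figure D2:**
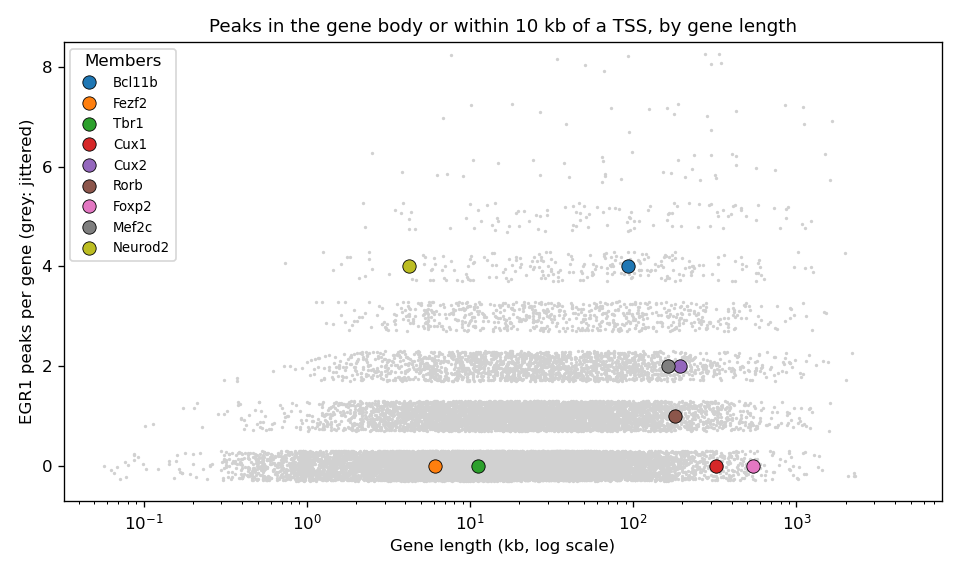
Number of EGR1 peaks per gene (y axis, grey points jittered) against gene length in kb (x axis, log scale) for all protein-coding genes, with the 9 layer factors as coloured points; 14 genes with more than 8 peaks lie above the range drawn. Neurod2 at 4.23 kb and Bcl11b at 93.2 kb share the count of 4, and the 2 longest layer factors, Cux1 and Foxp2, are at 0.

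The CpG richness around the first TSS was also set beside the presence of a peak, and a link between them was not tested. In the window of 1 kb to each side of the first TSS, the observed to expected CpG ratio, which is near 1 in CpG islands and low in most of the genome, was 0.86 for Bcl11b, 0.82 for Cux2, 0.55 for Rorb, 0.47 for Neurod2 and 0.28 for Mef2c. Among the genes without a peak it was 0.87 for Cux1, 0.76 for Foxp2, 0.28 for Fezf2 and 0.28 for Tbr1. Both groups thus held low and high values, and they overlapped. The window covers only the most upstream TSS of each gene. For Tbr1 this is the TSS of a noncoding transcript, with the coding TSSs outside the window. Other coding TSSs of Fezf2 also lay outside it, as did the Mef2c TSSs near Mef2c peak 2. The low values of these genes therefore do not cover all of their promoters.

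With respect to genes, 8 of the 13 peaks were centred in a gene body, 6 of them in an intron of the main transcript, and 5 were upstream. Among the 6 was Mef2c peak 2, whose centre is in an exon of another transcript of the gene. The same shares were not computed over all peaks. The TSS nearest to the centre belonged to the layer factor itself for all 13, and no TSS of another gene lay within 2 kb of any of them. The centre was within 2 kb of a TSS of the gene for 5 of the 13 peaks, or 38.5% (exact 95% binomial interval 13.9 to 68.4%, counting error over peaks only), beside 63.6% of all peaks within 2 kb of any TSS. The rule that chose the 13 peaks used the distance to a TSS and the gene body, so this share is a description, and the interval takes peaks of 1 gene as independent. The 5 were Bcl11b peaks 1 and 2, Rorb peak 1, Mef2c peak 2 and Neurod2 peak 2.

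The IDRs of the 13 peaks ran from 4.79e-08 to 0.00955 with a median of 0.00029, beside 0.000321 over the whole list, whose quartiles were 2.15e-06 and 0.00388. At or below the median of the whole list were 7 of the 13 peaks, 2 at Neurod2, 3 at Bcl11b and 1 each at Cux2 and Mef2c. An IDR of 0.001 or less was found for 9 of 13 peaks (69.2%, exact 95% interval 38.6 to 90.9%), beside 59.6% of all peaks. The 13 peaks were therefore spread over most of the range of the list, and each of the 4 genes with more than 1 peak had at least one on either side of the median of the list.

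**Figure D3:**
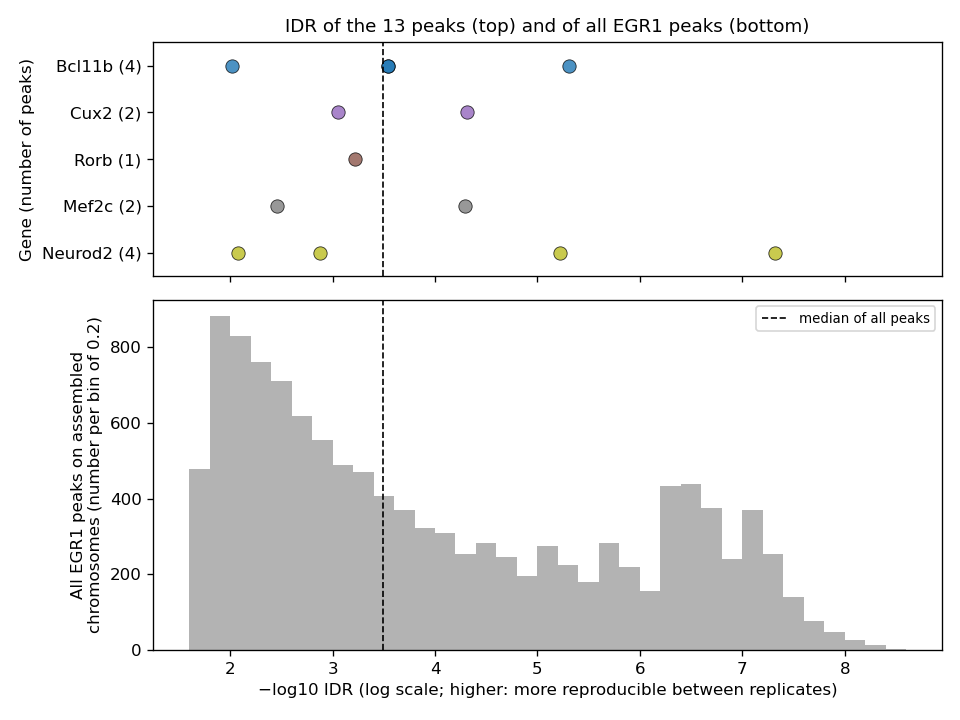
Upper panel, −log10 IDR (x axis) of each of the 13 peaks by gene, with the number of peaks in brackets; lower panel, number of peaks on assembled chromosomes in bins of 0.2 on the same axis, with the median of all peaks dashed. Neurod2 peak 2 stands farthest to the right, Bcl11b peaks 2 and 4 overlap just right of the median, and the single Rorb peak lies left of it.

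An exact EGR1 site was found in 3 of the 13 peaks, or 23.1% (exact 95% interval 5.04 to 53.8%), beside 16.6% of all peaks on assembled chromosomes. They were Mef2c peak 2, Neurod2 peak 3 and Neurod2 peak 4, and neither the Neurod2 peak of lowest IDR nor any Bcl11b, Cux2 or Rorb peak was among them. In Neurod2 peaks 3 and 4 the middle of the site was 4 and 10 bp from the peak centre. In the wide Mef2c peak it was 188 bp from the centre, near the upstream edge and 71 bp upstream of a TSS. A site within 1 mismatch was present in 10 of the 13 peaks (76.9%), beside 69.8% of all peaks. Bcl11b peak 1, Bcl11b peak 3 and Mef2c peak 1 had none, so that the Bcl11b peak of lowest IDR held no close match.

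The near-match closest to the peak centre is given first for each of the 7 peaks that had near-matches but no exact site. Bcl11b peak 2 held GAGGGGGCG at 3 bp from its centre, Bcl11b peak 4 held GCGGGGGAG at 2 bp, and Rorb peak 1 held the same GCGGGGGAG at 1 bp. Neurod2 peak 2 held GCGGGGGTG at 11 bp, Neurod2 peak 1 held GCTGGGGCG at 19 bp, and Cux2 peak 2 held GTGTGGGCG at 19 bp. Cux2 peak 1 held GCGTTGGCG at 29 bp. Further near-matches lay farther out, at 92 bp in Rorb peak 1, 91 bp in Neurod2 peak 1, 66 bp in Cux2 peak 1, 34 bp in Cux2 peak 2 and 29 bp in Neurod2 peak 2. In the 10 peaks with a site within 1 mismatch, the median distance of the closest one from the centre was 10.5 bp, beside 20.5 bp in the 8333 such peaks of the whole list. The distance was 30 bp or less in 9 of the 10, all but Mef2c peak 2, beside 66.1% of those 8333, and this limit was chosen after the values were seen.

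Most exact sites around the layer factors were not in a peak. Of the 9 exact sites in the windows of the 9 genes, 3 lay in a peak (33.3%), beside 33.7% of the 5969 exact sites in the windows of all protein-coding genes. Within 2 kb of a protein-coding TSS the share was 44.6% of 3981 sites. Neurod2 held 4 of the 9 sites, and Mef2c, Cux2, Tbr1, Cux1 and Foxp2 held 1 each, so 3 of the 4 genes without a peak had an exact site. The share of genes with an exact site was not computed over all genes or over those without a peak. Cux1 and Foxp2 are also the longest of the 9 genes, so more sequence was searched for them. Bcl11b and Rorb had peaks but no exact site in their windows, and Fezf2 had neither.

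The sequence around the sites differed widely. In the 501 bp around each site, the CpG ratio was 1.06 at Neurod2 site 2, 0.67 at Neurod2 site 1 and 0.58 at Mef2c site 1, the sites in a peak. Among the sites outside a peak it was 0.97 at Tbr1, 0.36 at Cux1, 0.23 at Cux2 and 0.10 at Foxp2. The remaining Neurod2 sites, 421 and 312 bp from the centre of Neurod2 peaks 2 and 1 but outside them, had 0.42 and 0.85. The Foxp2 and Cux1 sites were intronic, the Cux2 site was 5761 bp upstream of the gene, and the Tbr1 site lay just past the gene, 9146 bp downstream of a TSS. The Tbr1 site was thus in CpG-rich sequence yet 103806 bp from the nearest peak, and values inside and outside peaks overlapped.

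Further strings known as sites of other factors were searched on both strands of the 13 peaks. GGGCGG, which SP and KLF zinc finger factors bind and which can overlap an EGR1 site, was in 9 of 13 peaks (69.2%), beside 55.8% of all peaks. CAGATG, an E-box word that NEUROD factors prefer, was in 3 of 13, namely Bcl11b peaks 3 and 4 and Cux2 peak 2, beside 17.0% of all peaks, and in no Neurod2 peak. TGANTCA of AP-1, the FOS and JUN dimer, was in 0 of 13 and 6.48% of all peaks, TGACGTCA of CREB in 0 and 1.30%, and the MEF2 motif in 0 and 1.75%. For these last 3, a count of 0 of 13 allows a share of up to 24.7% (exact 95% interval), so absence was not shown.

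In base composition the medians of the 13 peaks were close to those of the whole list. Their median GC content was 60.4%, as over all peaks, and the median CpG ratio was 0.55, beside 0.60. Neurod2 peak 1 had the highest GC content (73.5%), Neurod2 peak 4 the lowest (51.8%), and the CpG ratio ran from 0.25 at Bcl11b peak 3 to 1.11 at Neurod2 peak 3. Mef2c peak 2 held 34 CpGs, Neurod2 peak 1 held 29 and Neurod2 peak 3 held 25, beside a median of 12 over all peaks. These counts are not corrected for width, and Mef2c peak 2 spans 476 bp beside a median width of 250 bp over all peaks.

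Each peak was also set beside windows of its own width 5 kb to each side. Its CpG ratio was above the mean of these windows for 11 of 13 peaks, and its GC content for 12 of 13. The windows were not measured for the rest of the list, so these counts are not shown to be particular to the layer factors. Rorb peak 1 stood out most in GC content, with 65.9% in the peak and 27.7% beside it. The exceptions were Bcl11b peak 3 (CpG ratio 0.25 in the peak and 0.52 beside it) and Cux2 peak 2 (0.39 and 0.43), and in GC content Neurod2 peak 4 (51.8% and 54.0%). Bcl11b peak 3 thus combined an IDR of 4.97e-06, no match to the EGR1 site within 1 mismatch and a CpG ratio below that of its surroundings, although its GC content of 60.6% was above the 49.1% beside it.

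Peaks away from promoters are CpG-poor in most of the list, and most of those counted at the layer factors, which the rule keeps near a TSS or in a gene, were less so. The 4340 peaks more than 2 kb from a TSS centred on a CpG ratio of 0.29 (median), with quartiles of 0.18 and 0.44, whereas peaks within 2 kb had 0.76. The 8 peaks more than 2 kb from a TSS of the layer factors had a median of 0.46, and 7 of the 8 were above 0.29, all but Bcl11b peak 3. Their median IDR was 0.000586, beside 0.00125 for all peaks that far from a TSS. Neurod2 contributed 3 of the 8, among them the pair with the highest ratios, 0.86 and 1.11. Only Bcl11b peaks 3 and 4 lay more than 10 kb from a TSS of their gene, and their ratios of 0.25 and 0.40 were between those quartiles. The 4340 peaks have no upper limit of distance, so the sets are not matched in it. These counts have no test, since peaks of 1 gene share its surroundings.

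**Figure D4:**
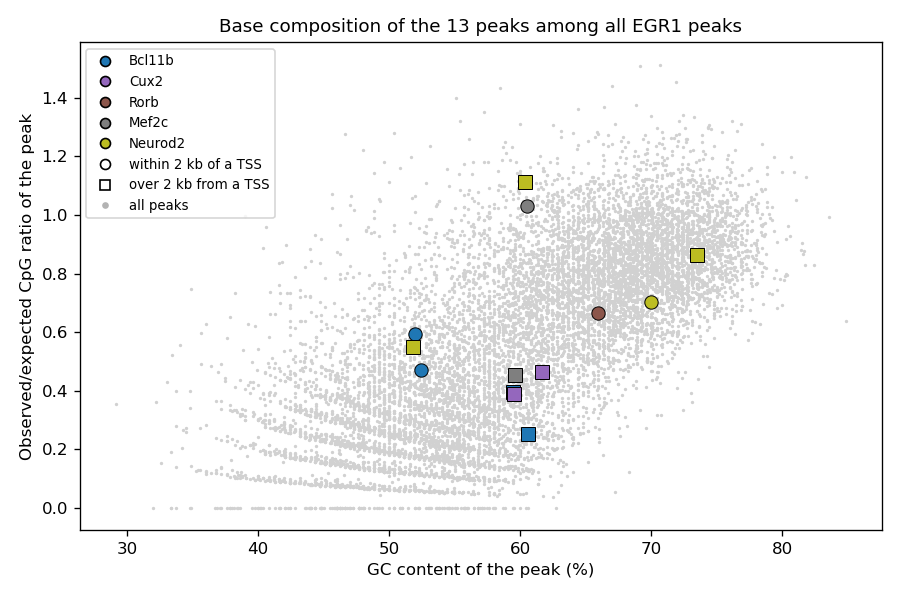
Observed to expected CpG ratio (y axis) against GC content in percent (x axis) of the 13 peaks, coloured by gene, over all peaks on assembled chromosomes in grey. Circles are within 2 kb of a TSS of the gene and squares farther away; the Neurod2 squares at 1.11 and 0.86 and the Mef2c circle at 1.03 lie high, and the Bcl11b square at 0.25 lies lowest.

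The distance limit decided which neighbours were counted. Just inside it were Cux2 peak 1 at 9493 bp and Neurod2 peak 1 at 8973 bp. The nearest peaks just outside lay 15621 bp from the Neurod2 TSS (chr11:98313896-98314159, IDR 0.000377), with the Neurod2 TSS still the nearest one, and 16751 and 18648 bp from it, where the nearest TSS was that of Ppp1r1b. Near Cux2, a peak with an IDR of 6.74e-08 (chr5:121848804-121849013) lay 17155 bp from a Cux2 TSS but 64 bp from that of 4933437G19Rik. Beyond the 3′ end of Bcl11b, peaks at 18741 and 21508 bp from the gene body (IDR 0.000204 and 0.000732) had no annotated TSS within 100 kb. Past Mef2c, 4 peaks between 54172 and 77907 bp from the gene body had their nearest TSS at the lincRNA genes C130071C03Rik and Gm26803, and the lowest IDR among them was 2.88e-07. Within 100 kb of the gene bodies the counts were 11 for Neurod2, 7 each for Bcl11b and Cux2, 6 for Mef2c, 3 for Cux1, 1 each for Fezf2, Tbr1 and Rorb, and 0 for Foxp2. Some of these peaks lay at TSSs of other genes, such as Stard3 and Pgap3 near Neurod2, and Sh2b3 and Ccdc63 near Cux2. The same count was not made over all genes.

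A wider list of 30 transcription factors was counted by the same rule. It is not limited to projection neurons and layers. Pax6, Eomes and Neurog2 are known from cortical progenitors, and Nfia, Nfib and Nfix also from astrocytes, and all of these had a peak. Of the 30 genes, 18 had a peak (60.0%), beside 39.6% of all protein-coding genes, so this is not a share for layer factors alone. They had 46 peaks in all, with a median IDR of 0.000278, and an exact EGR1 site was in 12 of the 46 (26.1%), beside 16.6% of all peaks. Among the genes with the most peaks, 5 each, were Bcl11a, a paralog of Bcl11b, and Mef2d, a paralog of Mef2c. The 12 without a peak were Bhlhe22, Emx1, Emx2, Etv1, Id2, Lhx2, Mef2a, Neurod6, Nr4a2, Tle4, Tshz2 and Zfpm2.

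Factors of other cortical cell types were also counted. Both shares lay between those of all protein-coding genes at 15 kb or less (29.7%) and at any length (39.6%). With 13 genes in each list, a difference from these shares or from that of the wider list was not tested. Of 13 interneuron factors, 4 had a peak (30.8%), with 5 peaks in all, at Satb1 (2), Dlx5, Npas1 and Sox6, and none at the other 9, among them Dlx1, Dlx2, Dlx6, Lhx6, Maf, Nr2f2 and Prox1. An exact EGR1 site was in 4 of those 5 peaks, beside 4 of the 10 peaks of the glial factors and 16.6% of all peaks. Of 13 glial factors, 5 had a peak (38.5%), with 10 peaks in all, 4 of them at Hes5, a Notch target, 2 each at Sox8 and Sox9, and 1 each at Nkx2-2 and Zbtb20. None was found at Id3, Myrf, Nkx6-2, Olig1, Olig2, Sox10, Sox2 and Sox21. The lists differ in gene length, with medians of 29.1 kb for the wider list, 14.8 kb for interneuron factors and 3.80 kb for glial factors, beside 163 kb for the 9 genes, and the part of length in these shares was not tested.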

How the data were processed

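EGR1 ChIP-seq was performed on frontal cortex in 2 replicates with 100-bp paired reads. Per the study's methods, quality-trimmed reads were aligned to mm10 by Bowtie (the submitters' processing notes list Bowtie2 2.2.9 and bedtools 2.26.0), and the authors called peaks per replicate by SPP and kept those passing an IDR of 2%. The deposited value of each merged peak is its IDR, which is read like a q-value. Reads, input DNA and single-replicate calls were not analysed here, so the list shows neither signal nor depth.

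Starts were taken as 0-based, as in BED files, since the sources used here do not state it, and printed positions count from 1. Genes came from GENCODE M21 and bases from GRCm38.p6. The 76 peaks on scaffolds have no sequence values. The 9 genes, the gene lists and the alternatives were chosen with earlier results of these data known. All 9 genes were named with every peak, and other genes where their TSS was nearest to a peak or, in the lists, where they had no peak or the most peaks. Some genes of the lists are not reported here by name. Names outside that rule were added after their values were seen. Intervals of shares are exact Clopper-Pearson 95% binomial intervals for counting error over peaks. Bounds of medians are instead peak values taken at ranks set by the binomial distribution. Peak assignment and motif search were tested on simulated data, where 200 of 200 genes and 200 of 200 sequences came out right. Python 3.11.15, numpy 2.4.6, pandas 2.3.3, scipy 1.17.1, pysam 0.24.0 and matplotlib 3.10.9 were used.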

Additional observations from a re-analysis of the deposited data

How the results depend on the processing

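Of 38 alternatives to the distance, annotation, IDR limit, motif and window, 33 left the counts within 1.5 times and the shares and medians within their intervals. The 13 peaks became 8 when only gene bodies were counted, 5 when only the 2 kb around a TSS was counted, and 7 among the peaks with an IDR at or under the median of the list. The number of genes with a peak stayed at 4 or 5 throughout. The share of peaks near a TSS rose from 38.5% to 69.2% when distances up to 5 kb were allowed, and the share with an EGR1 site from 23.1% to 76.9% when 1 mismatch was allowed, both by the construction of the looser limit. No replicate could be left out, since the deposited list merges both. No paired analysis was possible because there is 1 merged list and no result comes from a test. With 13 peaks the intervals are wide, the median IDR being bounded by 6.05e-06 and 0.00348 and the median CpG ratio by 0.40 and 0.86.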
